A study of Mus musculus with 20 samples.

Results

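The genes described here are the mouse cadherins, the unclustered protocadherins, the clustered alpha and beta protocadherins, and the Fat, Dachsous, Celsr and calsyntenin families. They were taken by symbol (Cdh, Pcdh, Fat, Dchs, Celsr or Clstn followed by a number or by a or b) and by level, a TPM (transcript abundance scaled for length and library total) of at least 1 in at least 3 of the 10 libraries of either tissue. Among 23412 deposited symbols, 83 fitted the name and 76 also passed the level, among 14897 genes of any name that passed it. The hippocampus fit held 75 of these members and the amygdala fit 73, and 72 were in both. Closest inside the limit were Pcdh12, with 3 hippocampus libraries at 1 TPM or more and a highest value of 1.16 TPM, and Cdh3, with 4 hippocampus libraries and a highest value of 4.41 TPM. Closest outside were Cdh26, with 2 hippocampus libraries at the limit and a highest value of 1.28 TPM, and Pcdha8, whose highest value was 0.84 TPM. Cdh16, Cdh17, Fat2, Pcdhb1 and the entry Pcdha4-g were also below it.

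The RNA came from 2 brain regions, hippocampus and amygdala, at postnatal day 21, to ask what the corepressors NCoR1 and SMRT do in neurons of the developing brain. Both proteins are docking platforms that recruit histone deacetylase activity to unliganded nuclear receptors such as the thyroid hormone and retinoic acid receptors. Each tissue had 4 control libraries, 3 libraries of mice in which Snap25-IRES2-cre acted on floxed NCoR1 (NCoR1-KO), and 3 in which the same driver acted on floxed SMRT (SMRT-KO). The labels do not say whether the controls carried the driver or a floxed allele, whether libraries of a group came from separate animals, or whether hippocampus and amygdala came from the same animals. The driver is pan-neuronal, so glia and vessels in the same bulk sample keep the floxed gene.

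Cadherins are calcium-dependent adhesion proteins whose extracellular repeats bind the same or a related cadherin on the neighbouring cell. The classical ones are tied to actin through catenins. Neurons choose clustered protocadherin promoters in individual combinations that allow a cell to tell its own branches from those of others, whereas Fat, Dachsous and Celsr proteins act in planar polarity and axon or dendrite patterning, and calsyntenins in synapse formation and vesicle transport. Different type II cadherins and delta protocadherins mark different nuclei, layers and circuits of the forebrain.

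NCoR1 and SMRT bind nuclear receptors, so the 250 bases before the annotated RefSeq start (build GRCm38.p6) are shown for 4 members named below. They are Clstn2 and Fat3, which were higher in SMRT-KO amygdala, Celsr3, which differed between the knockouts in the opposite direction, and Cdh18, which differed between the tissues. Other members, such as Pcdh20 and Cdh22, differed more between the tissues, and Cdh18 held the only half-site among the 29 windows available. Each reads 5′ to 3′ on the gene's own strand, and capitals mark the nuclear receptor half-site AGGTCA on either strand or, also on either strand, the GC box GGGCGG. The windows are chr9:98033168-98033417 on the minus strand for Clstn2, chr9:16502055-16502304 on the minus strand for Fat3, chr9:108825795-108826044 on the plus strand for Celsr3 and chr15:23036213-23036462 on the plus strand for Cdh18.
Clstn2: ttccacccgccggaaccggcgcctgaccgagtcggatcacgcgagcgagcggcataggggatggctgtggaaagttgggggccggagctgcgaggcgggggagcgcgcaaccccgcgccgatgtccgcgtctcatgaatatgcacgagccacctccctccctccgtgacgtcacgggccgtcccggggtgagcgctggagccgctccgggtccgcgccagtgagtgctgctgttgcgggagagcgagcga
Fat3: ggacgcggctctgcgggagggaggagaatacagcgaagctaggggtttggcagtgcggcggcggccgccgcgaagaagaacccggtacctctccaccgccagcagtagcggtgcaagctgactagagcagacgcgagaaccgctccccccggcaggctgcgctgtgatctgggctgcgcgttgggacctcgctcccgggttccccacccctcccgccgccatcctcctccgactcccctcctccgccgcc
Celsr3: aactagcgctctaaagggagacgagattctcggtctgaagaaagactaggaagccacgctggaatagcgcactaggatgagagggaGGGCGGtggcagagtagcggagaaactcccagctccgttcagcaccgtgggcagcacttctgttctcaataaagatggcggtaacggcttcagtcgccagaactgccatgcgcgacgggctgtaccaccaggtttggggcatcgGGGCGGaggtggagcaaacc
Cdh18: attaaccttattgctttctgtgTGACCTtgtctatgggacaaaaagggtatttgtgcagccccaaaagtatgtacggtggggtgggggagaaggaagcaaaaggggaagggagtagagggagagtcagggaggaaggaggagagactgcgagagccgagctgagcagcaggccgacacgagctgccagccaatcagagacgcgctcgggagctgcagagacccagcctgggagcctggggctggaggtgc
Neither motif occurred in the Clstn2 or Fat3 window. Celsr3 had 2 GC boxes. Cdh18 had 1 half-site, 228 bases before the start, and this RefSeq start lies inside the longer Cdh18 gene of the GENCODE annotation. The promoter table has an entry for 29 of the members that can be shown here. Over these, the half-site was found in 1 and the GC box in 12. Over all 32851 promoters of the same length the half-site occurred in 14.02% and the GC box in 32.7%. These are matches of letters in a short window and say nothing of binding.

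On the mouse build GRCm38, 36 of the members lay on chromosome 18, most of them in the alpha protocadherin cluster (12 placed genes, bases 36930184 to 37187661) and the beta cluster (21 genes, 37294812 to 37524479). Chromosome 8 held 8 members and chromosome 15 held 6. Of the 42 unclustered members 24 spanned more than 100 kb. Clstn2 (chromosome 9, 97444395 to 98033181, minus strand) covered 588787 bases, Fat3 (chromosome 9, 15910189 to 16501285, minus strand) 591097 bases, Cdh12 (chromosome 15, 20449265 to 21589533, plus strand) 1140269 bases and Pcdh15 (chromosome 10, 73099342 to 74649737, plus strand) 1550396 bases. By contrast Celsr3 (chromosome 9, 108826320 to 108852969, plus strand) took up 26650 bases and Pcdh20 (chromosome 14, 88464743 to 88471396, minus strand) 6654 bases. The alpha transcripts share their last exons, and Pcdhb21 and Pcdhb22 overlap on the same strand, so reads may have been split between those genes in a way the deposited values do not show.

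Ncor1 itself, the targeted gene of the first knockout, separated the labels in both tissues. It ran from 81.58 to 137.44 TPM in hippocampus control and from 41.91 to 61.09 TPM in hippocampus NCoR1-KO, and from 71.28 to 126.54 TPM in amygdala control and from 32.06 to 39 TPM in amygdala NCoR1-KO. Each library had between 13787 and 14509 genes at 1 TPM or more. TPM values keep no sequencing depth, so the depth behind a value is unknown. Lists of cell type and region markers checked the dissections: the 8 markers of the hippocampal CA fields summed to 659.79 to 929.12 TPM in hippocampus against 368.97 to 439.3 TPM in amygdala, and the 8 markers of amygdala nuclei to 182.6 to 434.98 TPM against 298.35 to 792.54 TPM, so the second list overlapped between the tissues. The 8 markers of the dentate gyrus overlapped too, at 244.88 to 476.95 TPM in hippocampus and 222.31 to 362.58 TPM in amygdala. A marker score, the median log2 distance of a list's genes from their average in that tissue, was far from 0 in several libraries. Hippocampus control 2 had a striatum score of 1.12 and an amygdala nuclei score of 0.91, hippocampus NCoR1-KO 3 a choroid plexus score of 3.07, hippocampus SMRT-KO 2 a thalamus score of 2.55, and amygdala SMRT-KO 2 an amygdala nuclei score of -1.18. Amygdala SMRT-KO 3 had a striatum score of 1.27, amygdala control 2 a striatum score of -1.09 and an oligodendrocyte score of -1.14, and amygdala control 1 a choroid plexus score of 1.22. The choroid plexus score varied most, from -2.02 to 3.07 over the hippocampus libraries. In bulk tissue fewer cells of a type and less RNA per cell cannot be told apart.

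TPM is per transcript length, so levels can be set side by side between genes. The calsyntenins Clstn1 and Clstn3 were at the top of the family. Clstn2 was lower, with 71.51 to 120.91 TPM in hippocampus and 36.09 to 69.32 TPM in amygdala, and was below Cdh2 and Pcdh1 on average. Clstn1, a postsynaptic membrane protein that also links cargo vesicles to kinesin, was first in both tissues, with 549.18 to 694.64 TPM over the hippocampus libraries and 718.5 to 938.19 TPM over the amygdala libraries. Clstn3, which binds neurexins across the synapse, was second with 204.09 to 257.35 TPM and 273.88 to 323.87 TPM. The 3 calsyntenins held 38.2% to 42.9% of the summed TPM of all members in the 6 groups, the lowest and highest of the group means.

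Among the classical cadherins of type I, Cdh2 (N-cadherin, the general neuronal one) averaged 119 TPM in hippocampus and 147 TPM in amygdala. Cdh4 (R-cadherin) averaged 9.01 and 44.1 TPM, and Cdh15 (M-cadherin) 1.05 and 2.02 TPM. Cdh1 (E-cadherin) and Cdh3 (P-cadherin), best known from epithelia, were the lowest members of hippocampus and of amygdala, with medians of 0.09 TPM and 0.295 TPM. The type II cadherins spread over a wide range. Cdh11 averaged 93.2 TPM in hippocampus and 48.3 TPM in amygdala, Cdh8 74.8 and 41.5 TPM, and Cdh10 47.9 and 51.6 TPM, while Cdh5, the cadherin of endothelial junctions, ran from 10.36 to 16.66 TPM and from 11.98 to 15.64 TPM. Cdh13 (T-cadherin), which has a lipid anchor and no cytoplasmic tail, averaged 50.5 and 129.8 TPM. Cdh23 and Pcdh15, the tip-link pair of hair cells, averaged 1.07 and 6.37 TPM in hippocampus.

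Delta protocadherins, several of which recruit the WAVE actin regulator, ranged from high to low. In hippocampus Pcdh11x ran from 2.79 to 9.56 TPM and Pcdh18 from 3.32 to 7.7 TPM, while others were far higher. Pcdh1 averaged 148 TPM in hippocampus and 107 TPM in amygdala, Pcdh9 102 and 95.7 TPM, and Pcdh10 61.1 and 116 TPM. Pcdh19, whose mutations cause an X-linked epilepsy, averaged 32.5 and 38.5 TPM. Celsr2 was the highest of the planar polarity cadherins at 101 and 96.0 TPM, ahead of Celsr3 at 33.2 and 31.6 TPM and Celsr1 at 3.14 and 1.94 TPM. Fat1 led the Fat and Dachsous genes at 19.05 and 22.95 TPM.

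Apart from Pcdhac2, the clustered alpha and beta genes were low one by one and higher in sum. The gamma cluster is outside the rule on symbols and is given further on among the lists. The alpha genes summed to 134 ± 8.79 TPM in hippocampus control and 151 ± 12.8 TPM in amygdala control (SD, n = 4 each). The beta genes summed to 123 ± 4.80 and 118 ± 11.3 TPM. Beside the 13 alpha and 21 beta members, these sums hold Pcdha8, Pcdha4-g and Pcdhb1, which were below the level. Pcdhac2, a C-type isoform that is not chosen at random, ran from 41.96 to 66.42 TPM in hippocampus and from 58.41 to 71.75 TPM in amygdala. It made up 41.9% to 44.3% of the alpha sum in the 6 groups. Pcdha12 was next at 12.3 TPM in hippocampus and 14.6 TPM in amygdala. In the beta cluster Pcdhb17 averaged 13.1 and 13.4 TPM and Pcdhb9 11.97 and 11.49 TPM, whereas Pcdhb4 averaged 2.18 and 1.54 TPM.

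**Figure D1:**
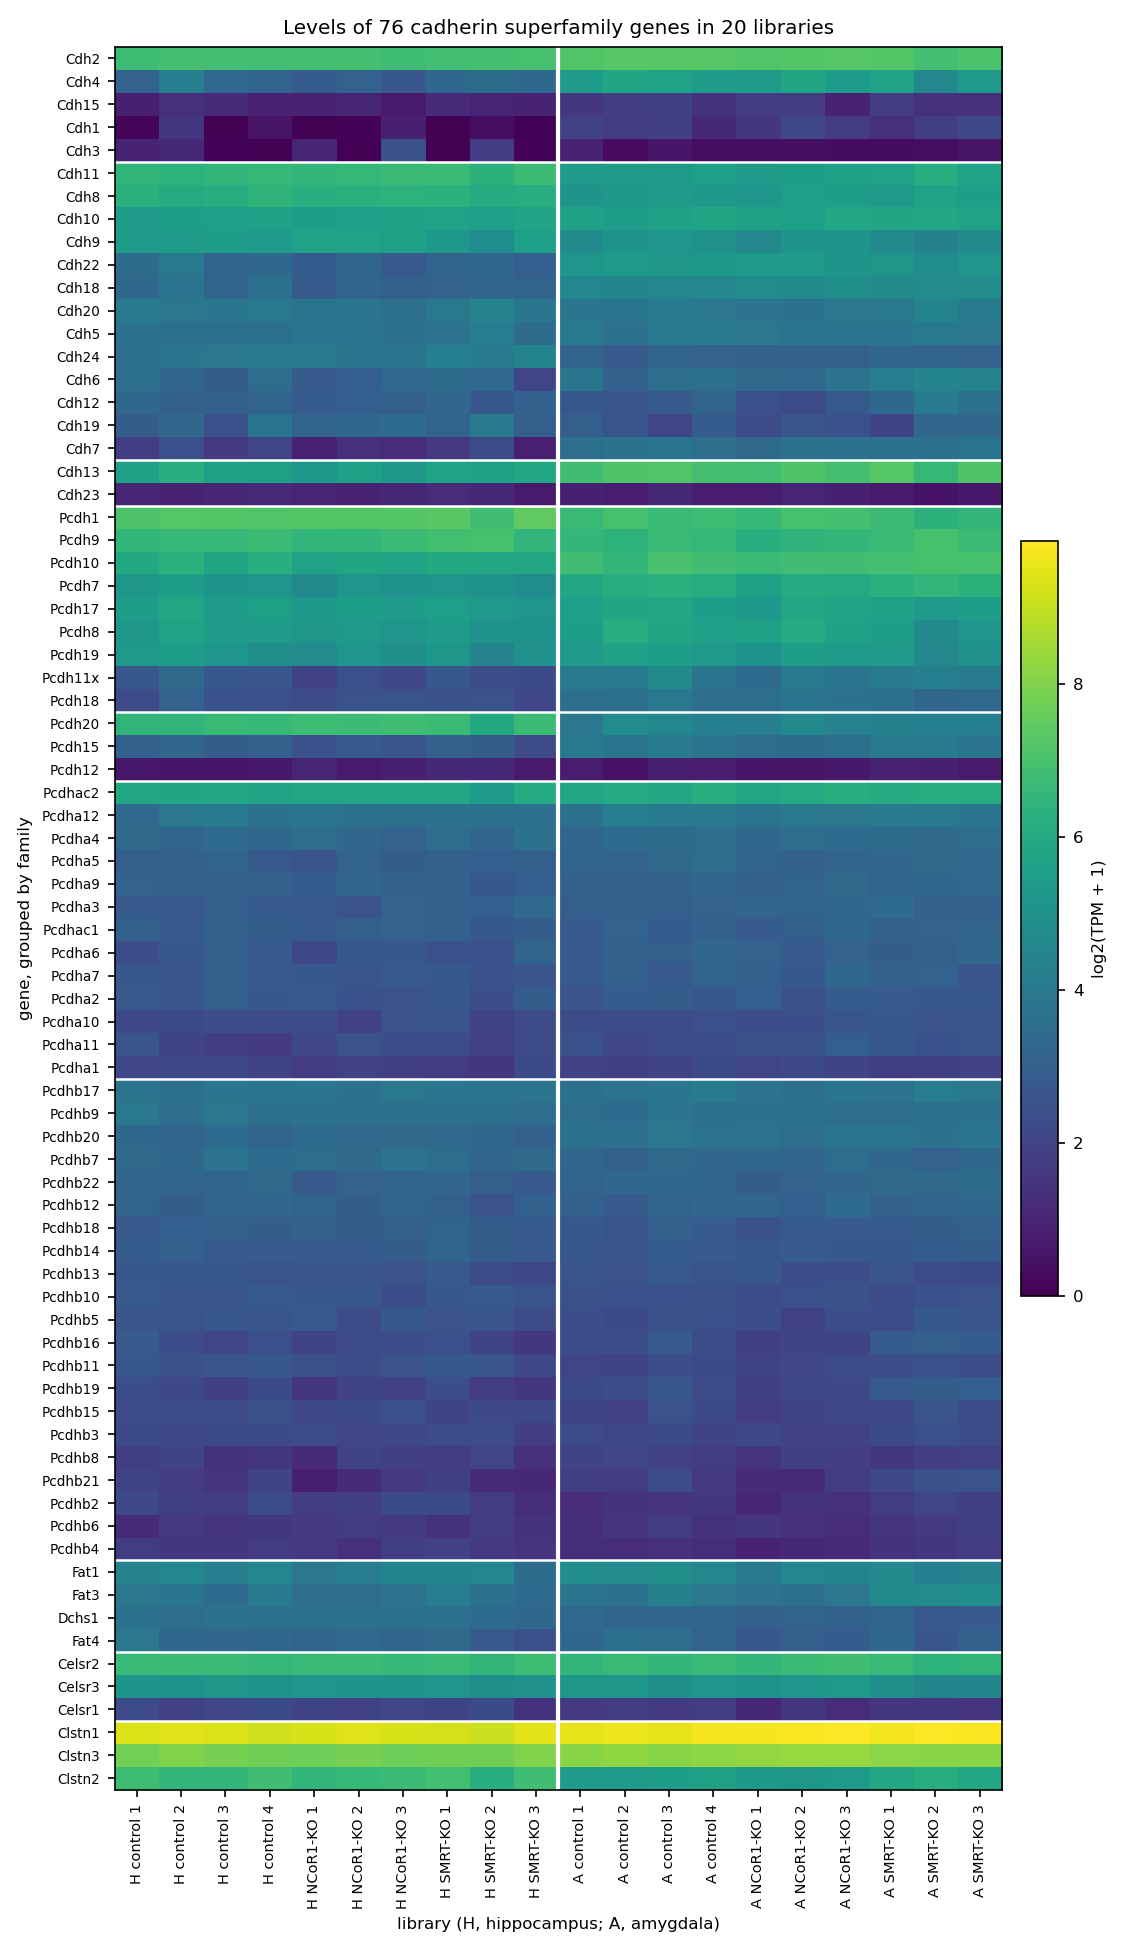
Level of each of the 76 members (rows, by family) in each of the 20 libraries (columns, by tissue and genotype), as log2(TPM + 1) by colour. Clstn1 and Clstn3 are the brightest rows throughout, and Pcdh20, Cdh4, Cdh22 and Cdh7 change colour at the border between hippocampus and amygdala.

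Some of these adhesion genes differed in level between hippocampus and amygdala. Pcdh20, Clstn2, Cdh11 and Cdh8 were higher in hippocampus, and Cdh4, Cdh22, Cdh7, Pcdh11x, Cdh13 and Cdh18 were higher in amygdala. In control mice 30 of 76 members differed (13 higher and 17 lower in hippocampus), against 33.1% of all genes tested (13.4% higher and 19.7% lower). In NCoR1-KO 28 members differed (10 higher and 18 lower), against 37.9% of all genes (17.5% and 20.4%), and in SMRT-KO 32 (10 higher and 22 lower), against 30.0% (12.7% and 17.3%). The members' shares were 39.5%, 36.8% and 42.1%. The share was above that of all genes in SMRT-KO, above it by less in control, and slightly below it in NCoR1-KO. The test was limma on log2(TPM + 1) over the 20 libraries, with Benjamini-Hochberg adjustment over all genes and a threshold of 0.05. The tissues were deposited as separate tables, so tissue and table cannot be told apart. The contrasts use different libraries in each genotype. In each of the 3 genotypes the same 21 members passed in the same direction, 27.6% of the members against 19.3% of all genes tested. For 18 of them all 10 libraries of one tissue were above all 10 of the other (23.7% of the members, against 13.2% of all genes). The exceptions were Cdh1, Cdh9 and Dchs1.

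Pcdh20 had the widest gap on the hippocampal side. It ran from 63.36 to 113.01 TPM over the hippocampus libraries with a median of 103.9 TPM, and from 14.13 to 26.08 TPM over the amygdala libraries with a median of 18.95 TPM. On the log2(TPM + 1) scale hippocampus exceeded amygdala by 2.17 ± 0.17 (SE) in control (limma adjusted p = 6.59e-08), by 2.37 ± 0.20 in NCoR1-KO and by 2.19 ± 0.20 in SMRT-KO. The lowest hippocampus value, 63.36 TPM, was that of SMRT-KO 2, the library with the high thalamus score.

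The other members on the hippocampal side differed less. Clstn2 ran from 71.51 to 120.91 TPM in hippocampus and from 36.09 to 69.32 TPM in amygdala, and the log2 difference was 1.18 ± 0.12 in control, 1.33 ± 0.14 in NCoR1-KO and 0.67 ± 0.14 in SMRT-KO (limma adjusted p = 0.00189 in the last). Cdh11 differed by 1.04, 1.04 and 0.74 in the same order, and Cdh8 by 0.95, 0.87 and 0.66. Cdh24, another type II cadherin, differed by 0.81, 0.83 and 1.10. Cdh9, known for its part in synapses between dentate granule cells and CA3 neurons, and Dchs1, a partner of Fat4, completed the hippocampal side.

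On the amygdala side 3 classical cadherins stood out. Cdh4 ran from 22.87 to 54.66 TPM in amygdala and from 5.33 to 17.46 TPM in hippocampus, and Cdh22 from 26.82 to 42.76 TPM and from 5.96 to 14.77 TPM. Cdh7 averaged 11.7 TPM in amygdala and 2.30 TPM in hippocampus. The log2 differences in control were -2.12 ± 0.23 for Cdh4 (limma adjusted p = 2.02e-06), -1.77 ± 0.15 for Cdh22 (limma adjusted p = 1.75e-07) and -1.68 ± 0.22 for Cdh7. All 3 differed more in NCoR1-KO, at -2.68, -2.35 and -2.41, but no tissue by genotype term passed the test, as given further on.

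Further members were higher in amygdala in all genotypes. Cdh18 differed by -1.11 ± 0.11, Cdh13 by -1.27 ± 0.15 and Pcdh11x, the X-linked protocadherin, by -1.31 ± 0.19 in control. The delta protocadherins Pcdh7, Pcdh10 and Pcdh18 differed by -0.86, -0.75 and -1.11, Pcdh15 by -0.84, and Cdh1, near 0 in hippocampus, by -1.08 ± 0.30. Cdh1 reached 1 TPM in 1 hippocampus library and 10 amygdala libraries. It is therefore a member only through amygdala, so the rule on level favoured its direction, and it is included in the counts above. Clstn1, Clstn3 and Pcdhb20 also belonged to this side. In the opposite direction, Cdh23 is a member only through hippocampus, with 7 libraries at 1 TPM or more there and 2 in amygdala. It was called higher in hippocampus in SMRT-KO (0.43 ± 0.15, limma adjusted p = 0.0345). The rule on level favoured that direction too, and the call is in the SMRT-KO count above.

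Of the families, the type II cadherins contributed 4 higher and 4 lower calls of 13 in control, the delta protocadherins 1 higher and 4 lower of 9, and the calsyntenins 1 higher and 2 lower of 3. The alpha cluster contributed 0 of 13 in control (1 lower in each knockout) and the beta cluster 4 higher and 1 lower of 21. Cell type markers also differed between the dissections: all 10 oligodendrocyte markers were called higher in hippocampus in control, with a median log2 difference of 1.34, while 6 of 9 striatum markers and 6 of 8 microglia markers were called lower. Their part in the members' differences was not tested. Hippocampus control 2, the library with the high striatum and amygdala nuclei scores, had the highest hippocampal values of Cdh4 (17.46 TPM), Cdh22 (14.77 TPM), Pcdh11x (9.56 TPM), Cdh18 (12.79 TPM), Cdh13 (73.92 TPM) and Cdh1 (2.06 TPM), all of them members that were higher in amygdala.

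**Figure D2:**
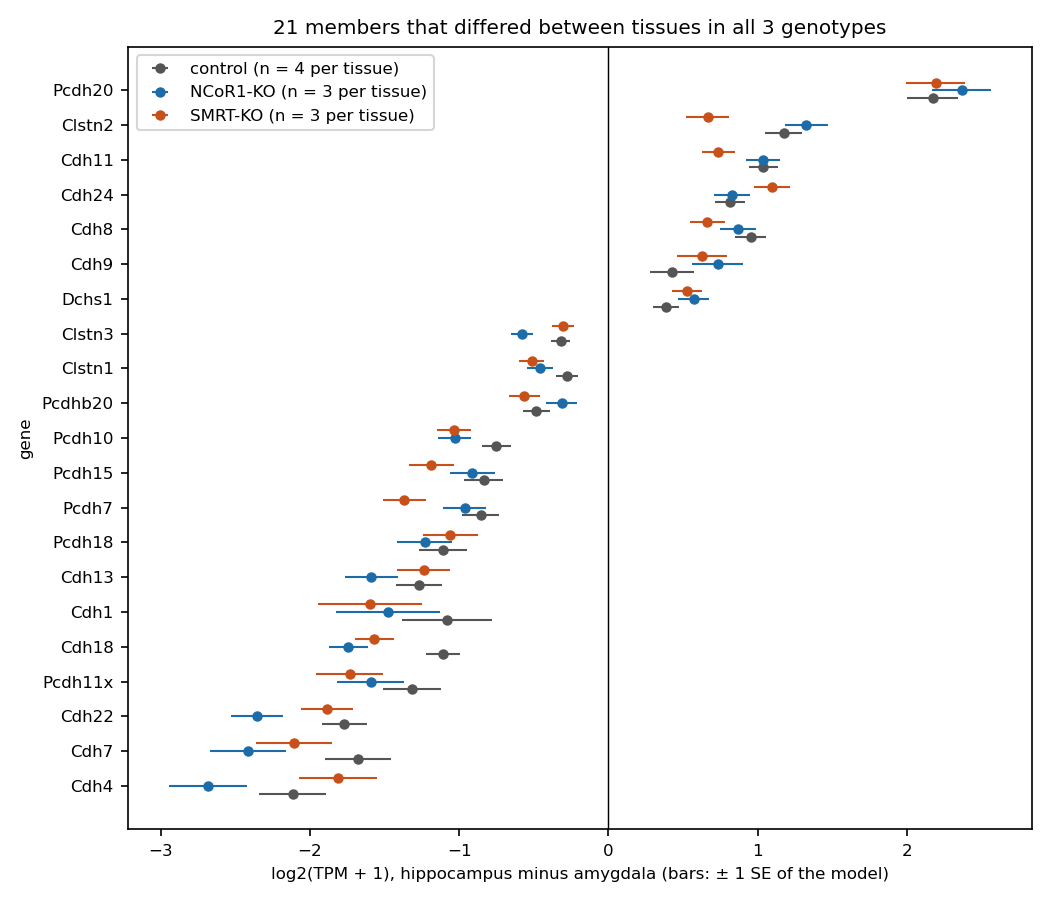
Hippocampus minus amygdala difference on the log2(TPM + 1) scale with its standard error (horizontal axis) for the 21 members that passed in all 3 genotypes (vertical axis), one symbol per genotype. Pcdh20 lies farthest to the right at about 2.17 to 2.37 and Cdh4 farthest to the left in control and NCoR1-KO (Cdh7 in SMRT-KO), and the 3 symbols of a gene lie on the same side of 0.

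In hippocampus no member passed the test in either knockout. Against control, 0 of 75 were called in NCoR1-KO and 0 of 75 in SMRT-KO, where 0% of all 14501 genes tested were called in either comparison, and 0 of 75 between the knockouts, again beside 0% of all genes. At an unadjusted p under 0.05 in limma, 9 members were lower and 0 higher in NCoR1-KO, beside 2.65% and 1.88% of all genes. In SMRT-KO 2 were higher and 2 lower, beside 2.13% and 3.48% of all genes, and between the knockouts 1 was higher and 2 lower in NCoR1-KO, beside 3.82% and 2.77%. Of the 75 members 53 were below 0 in NCoR1-KO, with a median log2 difference of -0.06 (the median over all genes was 8.2e-05). Both knockout comparisons use the same 4 controls.

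In NCoR1-KO hippocampus the nearest to a call had an adjusted p of 0.998, and their values are given as a description. Pcdh11x was 5.39, 9.56, 5.4 and 5.32 TPM in the controls and 2.79, 4.36 and 3.38 TPM in NCoR1-KO, so the groups did not overlap (log2 difference -0.70 ± 0.22, limma adjusted p = 0.998). Cdh22 was 10.2, 14.77, 7.9 and 9.08 TPM in control and 6.3, 8.34 and 5.96 TPM in NCoR1-KO, with an overlap (-0.52 ± 0.19, limma adjusted p = 0.998). Cdh18 gave -0.43 ± 0.16 and Pcdh10 -0.28 ± 0.10. The second control library in these lists was the one with the high striatum and amygdala nuclei scores, and over the whole comparison 8 of 8 amygdala nuclei markers (median -0.50, 208.08 to 434.98 TPM in control and 182.6 to 223.53 TPM in NCoR1-KO) and 8 of 9 striatum markers (median -0.62, 108.26 to 277.34 TPM and 115.97 to 153.6 TPM) were lower, with 0 called. Without it Pcdh11x gave -0.51, Cdh22 -0.36, Cdh18 -0.32 and Pcdh10 -0.21. The higher values included Cdh9, with 39.84 to 45.42 TPM in control and 47.61, 50.81 and 51.62 TPM in NCoR1-KO (0.24 ± 0.14, limma adjusted p = 0.998), and Pcdh20, with 86.56 to 102.92 TPM and 108.83 to 113.01 TPM (0.25 ± 0.16). Counted over the members, 4 lay entirely above and 6 entirely below the control libraries, beside 4.18% and 3.91% of all genes.

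In SMRT-KO hippocampus Cdh24 was nearest to a call, at 11.23, 13.65, 14.14 and 16.15 TPM in control and 18.05, 15.82 and 20.85 TPM in the knockout (log2 difference 0.38 ± 0.12, limma adjusted p = 0.779). One knockout library fell within the control range. Pcdh12, a protocadherin of endothelial cells, was 0.48 to 0.58 TPM in control and 1.15, 1.16 and 0.63 TPM in SMRT-KO, a difference at the edge of detection. Its 3 hippocampus libraries at 1 TPM or more were all knockout libraries, so the rule on level favoured this direction. Pcdh12 is among the members counted above as higher in SMRT-KO and as entirely above control in NCoR1-KO. Fat4 gave -0.57 ± 0.24 and Pcdh8 -0.28 ± 0.12. Between the knockouts Cdh9 was nearest, at 50.81, 51.62 and 47.61 TPM in NCoR1-KO libraries, against 37.57, 26.95 and 46.51 TPM in SMRT-KO (0.46 ± 0.15, limma adjusted p = 0.726), and the lowest of these, 26.95 TPM, was again SMRT-KO 2.

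In amygdala NCoR1-KO no member passed either, 0 of 73 against 0.411% of all 14606 genes tested. At an unadjusted p under 0.05 there were 4 higher and 10 lower members, beside 3.30% and 9.81% of all genes. The smallest adjusted p belonged to Pcdh15, at 15.01, 13.05, 15.41 and 12.83 TPM in control and 10.65, 10.36 and 11.58 TPM in NCoR1-KO (log2 difference -0.34 ± 0.09, limma adjusted p = 0.126). It was the 1 member of 72 whose 3 NCoR1-KO libraries lay below every control library in both tissues: in hippocampus it was 7.29, 8.67, 6.6 and 7.25 TPM in control and 4.67, 6.01 and 5.28 TPM in the knockout (-0.42 ± 0.18, limma adjusted p = 0.998). Over all genes tested in both tissues 0.605% were separated in this way, and the member is given as a description, with no test. Markers of other cell types were also lower in NCoR1-KO amygdala, with 0 called: 5 of 5 for oligodendrocyte precursors (summed level 171.5 to 216.89 TPM in control and 161.37 to 179.76 TPM in NCoR1-KO), 10 of 10 for oligodendrocytes, 8 of 8 for microglia (526.98 to 664.36 TPM and 470.94 to 509.89 TPM), 8 of 8 for endothelium (257.82 to 369.05 TPM and 247.72 to 287.76 TPM), 8 of 8 for mural cells, fibroblasts and meninges (263.56 to 329.84 TPM and 256.9 to 274.66 TPM) and 7 of 8 for astrocytes (2284.42 to 2707.82 TPM and 2040.97 to 2213.72 TPM). Their part in the members' values was not tested.

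The calsyntenins did not pass in NCoR1-KO amygdala. Clstn3 was 276.7, 298.01, 280.91 and 290.9 TPM in control and 312.23, 321.99 and 323.87 TPM in NCoR1-KO (0.16 ± 0.04, limma adjusted p = 0.145). Clstn1 was 746.74, 788.56, 718.5 and 843.76 TPM in control and 851.18, 868.39 and 916.87 TPM in NCoR1-KO (0.18 ± 0.06, limma adjusted p = 0.248). Clstn2 was 42.57 to 47.55 TPM in control and 37.14, 36.09 and 40.18 TPM in NCoR1-KO (-0.24 ± 0.07, limma adjusted p = 0.184). For each of the 3 the groups were separate. Over all members 4 lay entirely above and 8 entirely below the controls, beside 3.68% and 8.43% of all genes. Fat4, a large polarity cadherin, gave -0.55 ± 0.16 (limma adjusted p = 0.183) and Pcdhb16 -0.47 ± 0.14 (limma adjusted p = 0.180).

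In amygdala SMRT-KO 2 members rose, Clstn2 and Fat3, and no member fell. That is 2 of 73, against 0.110% of all genes tested, or 16 genes (0.0479% higher and 0.0616% lower). At an unadjusted p under 0.05, 16 members were higher and 8 lower, beside 8.42% and 13.5% of all genes. Clstn2, a synaptic calsyntenin, was 42.57, 43.29, 45.29 and 47.55 TPM in control and 60.29, 69.32 and 58.01 TPM in SMRT-KO. Fat3, which shapes the dendrites of retinal amacrine cells, was 13.23, 11.8, 18.81 and 14.26 TPM in control and 25.4, 26.31 and 27.4 TPM in SMRT-KO. Every knockout library was above every control library for both genes. The log2 differences were 0.47 ± 0.07 for Clstn2 and 0.84 ± 0.13 for Fat3, and both had a limma adjusted p of 0.0473, just under the threshold. Leaving out any 1 of the 10 amygdala libraries other than control 3 or SMRT-KO 1 ended both calls: without SMRT-KO 2, the library with the low amygdala nuclei score, Clstn2 gave 0.40 and Fat3 0.84 (limma adjusted p = 0.232 for both). Without SMRT-KO 1 the count of called members was 10.

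The members next in rank did not pass. Cdh6, a type II cadherin, was 13.33, 7.14, 10.99 and 11.1 TPM in control and 17.26, 21.27 and 20.36 TPM in SMRT-KO (0.85 ± 0.17, limma adjusted p = 0.0572). Cdh12, of the same family and on the same chromosome but not next to it, was 5.66, 5.11, 6.22 and 7.98 TPM and 8.72, 16.03 and 11.29 TPM (0.82 ± 0.20, limma adjusted p = 0.0680). Celsr3, which guides axon tracts, was 36, 36.28, 29.54 and 35.3 TPM and 28.85, 21.74 and 21.88 TPM (-0.50 ± 0.11, limma adjusted p = 0.0591). None of the 3 overlapped between the groups. Pcdh8 (-0.61 ± 0.20), Dchs1 (-0.32) and Cdh9 (-0.42) were also lower without passing. In all, 14 members lay entirely above and 4 entirely below the controls, beside 5.85% and 12.2% of all genes.

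**Figure D3:**
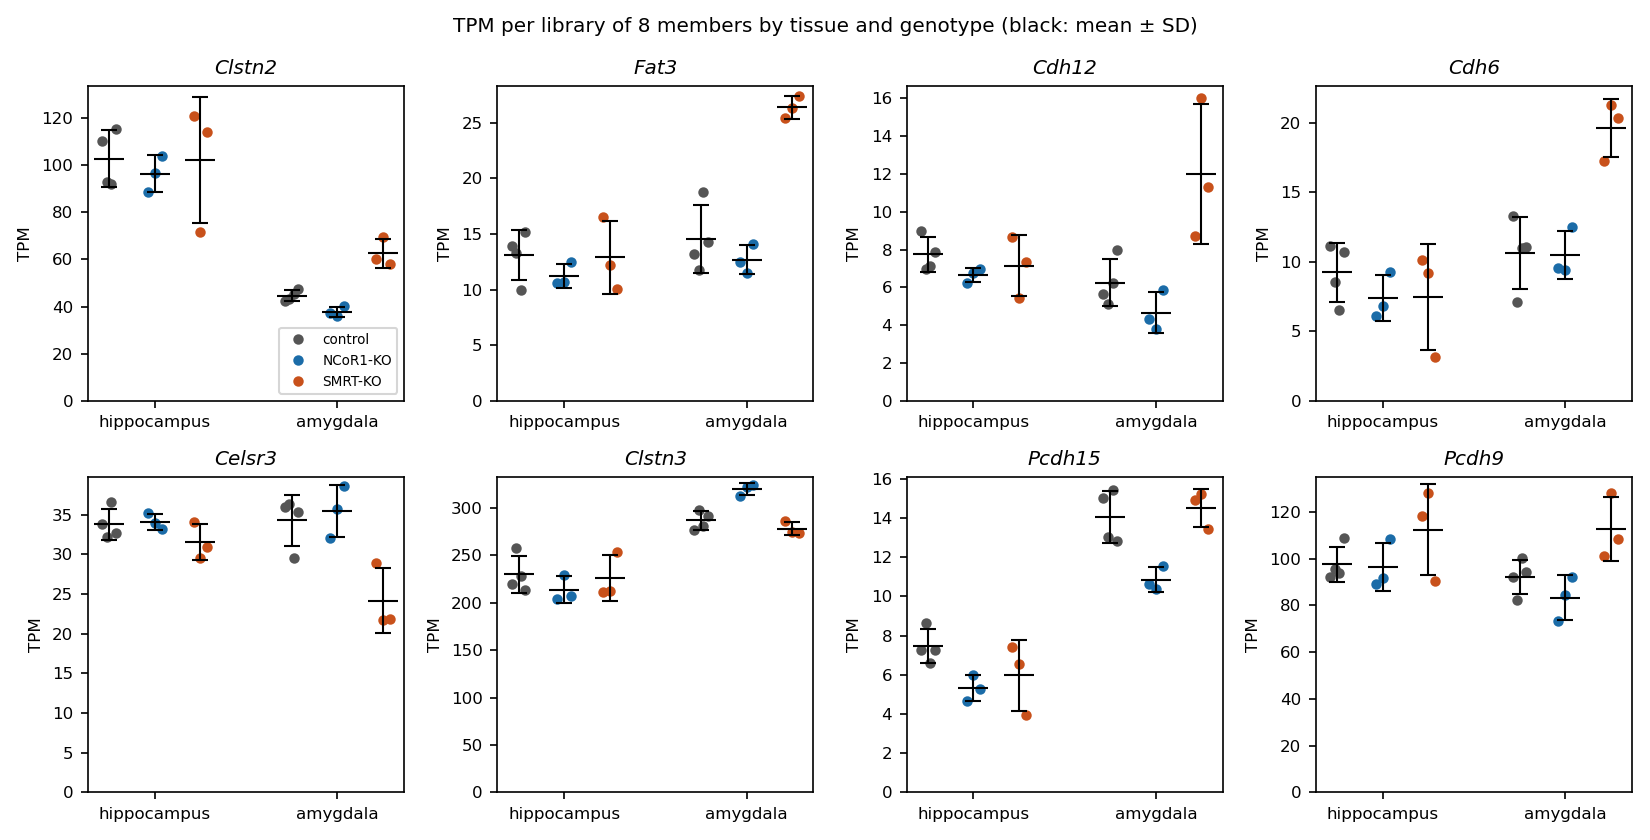
TPM of 8 members in each library (points) with the group mean and SD (bars), by tissue and genotype. In amygdala the 3 SMRT-KO points of Clstn2 (58.01 to 69.32 TPM) and Fat3 (25.4 to 27.4 TPM) lie above all control and NCoR1-KO points, and those of Celsr3 lie below them.

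The knockouts differed most from each other in amygdala, where 15 of 73 members passed, 2 higher and 13 lower in NCoR1-KO than in SMRT-KO, against 11.5% of all genes tested (5.03% higher and 6.46% lower). The lower ones were Clstn2, Fat3, Cdh12, Cdh6, Pcdh15, Pcdh9, Pcdh7 and 6 beta protocadherins, and the higher ones Celsr3 and Clstn3. Clstn2 had the smallest adjusted p, with 37.14, 36.09 and 40.18 TPM in NCoR1-KO libraries, against 60.29, 69.32 and 58.01 TPM in SMRT-KO (-0.71 ± 0.08, limma adjusted p = 0.0013). Fat3 followed at 12.47, 11.52 and 14.09 TPM against 25.4, 26.31 and 27.4 TPM (-1.003 ± 0.14, limma adjusted p = 0.00435). The libraries of this comparison are those of the comparisons with control, so these values are not independent of the ones above. With 3 libraries against 3, an exact permutation test cannot go below 0.1, so the calls rest on the spread that limma pools over all genes. The count of 15 was 4 without SMRT-KO 3, the library with the striatum score of 1.27, 5 without SMRT-KO 2 or NCoR1-KO 2, and 8 without NCoR1-KO 1. It was 9 with the replicate number as a block.

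The unclustered members on the lower side were of several kinds. Cdh12 was 4.33, 3.79 and 5.89 TPM in NCoR1-KO libraries, against 8.72, 16.03 and 11.29 TPM in SMRT-KO (-1.18 ± 0.21, limma adjusted p = 0.0115). Cdh6 was 9.58, 9.41 and 12.51 TPM and 17.26, 21.27 and 20.36 TPM (-0.85 ± 0.18, limma adjusted p = 0.0215). For both, the NCoR1-KO libraries lay within or below the control range. Pcdh15 gave -0.39 ± 0.09 (limma adjusted p = 0.0267), and here the NCoR1-KO libraries were the ones outside the control range. Pcdh9 was 73.18, 84.28 and 92.33 TPM and 101.38, 128.11 and 108.63 TPM (-0.43 ± 0.11, limma adjusted p = 0.0299). Pcdh7 was 48.46, 67.18 and 64.45 TPM and 77.91, 88.63 and 80.67 TPM (-0.46 ± 0.12, limma adjusted p = 0.0333). These are the 2 delta protocadherins of the group of 9 that passed.

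On the higher side Celsr3 was 32.08, 35.7 and 38.61 TPM in NCoR1-KO libraries, against 28.85, 21.74 and 21.88 TPM in SMRT-KO (0.54 ± 0.12, limma adjusted p = 0.0215). Clstn3 was 312.23, 321.99 and 323.87 TPM and 286.24, 274.24 and 273.88 TPM (0.20 ± 0.04, limma adjusted p = 0.0229). Clstn3 and Clstn2 thus differed in opposite directions, while Clstn1 was 851.18 to 916.87 TPM in NCoR1-KO libraries, against 828.11 to 938.19 TPM in SMRT-KO and overlapped. Pcdh8, a delta protocadherin regulated by neuronal activity, gave 0.63 and did not pass (limma adjusted p = 0.0841), nor did Pcdh1 at 0.32 (limma adjusted p = 0.140).

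Within the beta cluster 6 of 21 genes were lower in NCoR1-KO than in SMRT-KO amygdala, 17 of 21 differences were below 0, and none was called higher, beside 6.46% of all genes called lower, 5.03% called higher and 49.9% above 0. Pcdhb16 (chromosome 18, 37477814 to 37483038) was 3.99, 4.15, 6.12 and 3.79 TPM in control, 2.64, 3.08 and 3.12 TPM in NCoR1-KO libraries, against 6.38, 6.96 and 6.35 TPM in SMRT-KO (-0.94 ± 0.15 between the knockouts, limma adjusted p = 0.0069). Pcdhb19 (37496991 to 37504128) was 2.63, 3.43 and 3.58 TPM and 5.68, 6.6 and 6.68 TPM in the knockouts (-0.80 ± 0.14, limma adjusted p = 0.0107). Control libraries lay between the knockouts for both, from 3.66 to 5.39 TPM for Pcdhb19. Pcdhb21 (37513621 to 37518325) was 1.32, 1.29 and 2.25 TPM and 3.47, 4.53 and 4.78 TPM (-1.02 ± 0.19, limma adjusted p = 0.0142). Pcdhb22, which overlaps it, was 6.5, 7.5 and 8.47 TPM and 9.66, 9.52 and 10.11 TPM (-0.35 ± 0.10, limma adjusted p = 0.0434). Between these 4 genes lie Pcdhb17, Pcdhb18 and Pcdhb20, which were not called (limma adjusted p = 0.255, 0.272 and 0.545).

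Of the other calls, Pcdhb2 (37294812 to 37297624) was 1.09, 1.75 and 1.56 TPM in NCoR1-KO libraries, against 2.37, 3.13 and 2.66 TPM in SMRT-KO (-0.60 ± 0.15, limma adjusted p = 0.0316), and Pcdhb4 was 1, 1.12 and 1.31 TPM and 1.7, 1.98 and 2.37 TPM (-0.49 ± 0.13, limma adjusted p = 0.0373). At such levels log2(TPM + 1) understates the fold. The most abundant beta genes, Pcdhb17, Pcdhb9 and Pcdhb20, were not among the calls. Summed over the 21 genes and Pcdhb1, the beta cluster was 118 ± 11.3 TPM in control (SD, n = 4). It was 109 ± 6.43 TPM (n = 3) for NCoR1-KO and 131 ± 7.94 TPM (n = 3) for SMRT-KO. Of this, Pcdhb2, Pcdhb16, Pcdhb19 and Pcdhb21, a set chosen after their values were seen, made up 13.3 ± 2.63, 9.25 ± 1.44 and 19.9 ± 1.74 TPM. Among the 13 alpha genes 0 were called. The alpha sums, which also hold Pcdha8 and Pcdha4-g, were 144.05 to 169.95 TPM in NCoR1-KO libraries, against 159.4 to 162.36 TPM in SMRT-KO, and overlapped. Against control no beta gene was called in either knockout. In SMRT-KO 19 of 21 were above 0, beside 42.0% of all genes, and in NCoR1-KO 4 of 21, beside 41.7% of all genes.

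**Figure D4:**
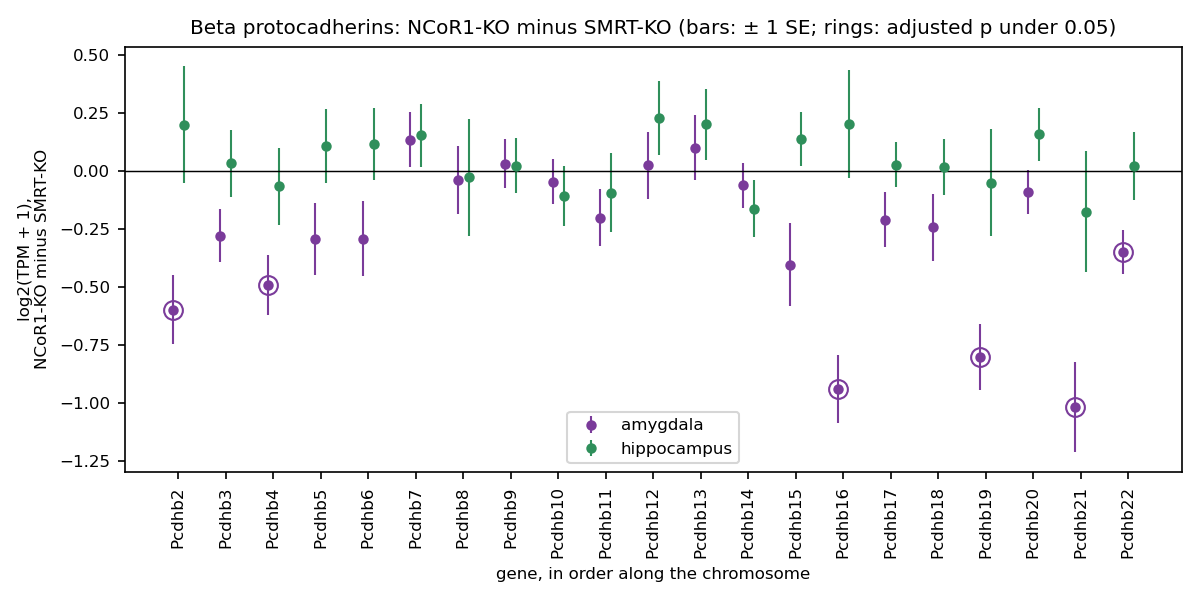
NCoR1-KO minus SMRT-KO difference on the log2(TPM + 1) scale with its standard error (vertical axis) for the 21 beta protocadherins in their order along chromosome 18 (horizontal axis), in amygdala and hippocampus; rings mark limma adjusted p under 0.05. The 6 ringed genes are all in amygdala and below 0, with Pcdhb21 lowest at -1.02.

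Regional and glial markers moved with the SMRT-KO amygdala values. All 9 striatum markers were higher in SMRT-KO than in control (median log2 difference 0.98, 0 called), with summed levels of 253.65 to 830.81 TPM in control, 330.07 to 645.43 TPM in NCoR1-KO libraries, against 753.4 to 1277.17 TPM in SMRT-KO. All 10 oligodendrocyte markers were higher too, summing to 2625.91 to 9333.77 TPM, 3837.86 to 5253.02 TPM and 7870.23 to 11850.4 TPM. All 8 amygdala nuclei markers were lower in SMRT-KO, summing to 510.27 to 660.84 TPM, 608.84 to 792.54 TPM and 298.35 to 589.45 TPM. Of 8 cortex layer markers 7 were higher, summing to 301.32 to 366.82 TPM, 296.79 to 338.8 TPM and 380.21 to 563.68 TPM. Between the knockouts the 4 lists moved as blocks, with 9 of 9, 10 of 10 and 8 of 8 lower in NCoR1-KO for striatum, oligodendrocytes and cortex layers and 8 of 8 higher for amygdala nuclei. Microglia markers were lower in NCoR1-KO in 8 of 8, of which 7 passed. No marker of the 4 lists was below 0.1 TPM in all libraries of a group.

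With a marker score added to the fit as a covariate, most of the amygdala calls were lost. Between the knockouts 0 members passed with the cortex layer score, 1 with the amygdala nuclei score and 1 with the oligodendrocyte score, and the calls over all genes dropped to 39, 53 and 38 from 1679. The member that stayed under the latter scores was Clstn2, at -0.55 (limma adjusted p = 0.0410) and -0.69 (limma adjusted p = 0.0363). Fat3 kept most of its size between the knockouts, at -0.97, -0.94 and -0.84, without passing (limma adjusted p = 0.237, 0.101 and 0.0890). Pcdhb16 gave -1.18, -0.94 and -0.86. Cdh12 gave -0.38, -0.59 and -1.03 and Cdh6 -0.31, -0.60 and -0.45. Both were smaller in size under each score than without one, and smallest under the cortex layer score. Against control, Clstn2 in SMRT-KO gave 0.28, 0.36 and 0.46 and Fat3 0.81, 0.79 and 0.72 under the same scores, none of them passing. Each of these scores also differed by genotype (the sums above), so in 10 libraries its part in the differences and that of genotype cannot be told apart.

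**Figure D5:**
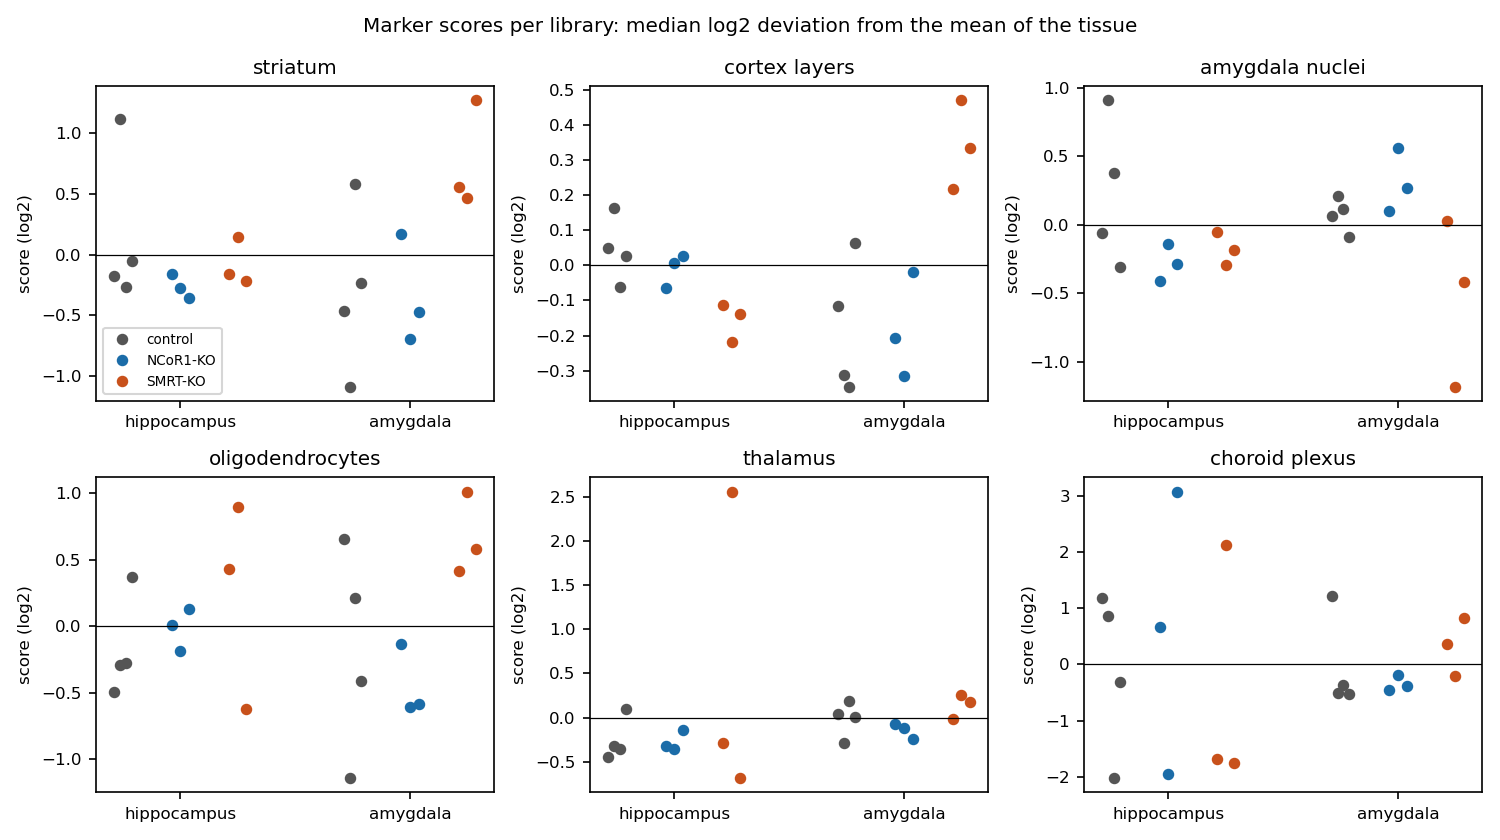
Score of 6 marker lists (vertical axis, median log2 distance from the tissue average) in each of the 20 libraries (points, grouped by tissue and genotype). For striatum, hippocampus control 2 (1.12) and amygdala SMRT-KO 3 (1.27) stand high and amygdala control 2 (-1.09) low, hippocampus SMRT-KO 2 stands high for thalamus (2.55), and amygdala SMRT-KO 2 low for amygdala nuclei (-1.18).

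Whether a knockout acted differently on the members in the tissues was tested with the tissue by genotype term, hippocampus effect minus amygdala effect. For NCoR1-KO 0 of 76 members passed, beside 0% of all 14897 genes, and 4 members were lower and 0 higher at an unadjusted p under 0.05, beside 1.97% and 1.67% of all genes. The nearest was Cdh18 at -0.63 ± 0.17 (limma adjusted p = 1.00). Its NCoR1-KO difference was -0.43 in hippocampus and 0.21 in amygdala, with 21.29 to 23.69 TPM in amygdala control and 24.45 to 29.56 TPM in amygdala NCoR1-KO. For SMRT-KO 0 of 76 passed, beside 0% of all genes, with 13 lower and 2 higher at an unadjusted p under 0.05, beside 4.83% and 3.89% of all genes. Fat3 gave -0.86 ± 0.23 and Cdh12 -0.94 ± 0.26 (limma adjusted p = 0.327 for both). Clstn2 gave -0.51 ± 0.19 (limma adjusted p = 0.465). The amygdala rises of Clstn2 and Fat3 were therefore not shown to differ from hippocampus, where Clstn2 was 110.38, 92.82, 91.91 and 115.39 TPM in control and 120.91, 71.51 and 113.93 TPM in SMRT-KO.

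Genes that work with the members were read from lists for the same comparisons. In hippocampus, and in amygdala for either knockout against control, 0 genes of any of these lists passed. Between the knockouts in amygdala 11.5% of all genes were called, and the lists below are to be read against that share. Here 1 of 22 gamma protocadherins passed, the C-type Pcdhgc4, which was higher in NCoR1-KO (26.5 against 18.9 TPM, 0.47 ± 0.11, limma adjusted p = 0.0281). The gamma sums were 541 ± 9.80 TPM in control (SD, n = 4), 545 ± 14.8 TPM (n = 3) for NCoR1-KO and 512 ± 25.8 TPM (n = 3) for SMRT-KO. Of 13 genes of protocadherin promoter choice and cluster silencing 2 passed, both lower in NCoR1-KO: the cohesin loader Nipbl (18.2 against 29.0 TPM, -0.65 ± 0.10, limma adjusted p = 0.00735) and the cohesin release factor Wapal (-0.36). Of 14 catenins and adaptors 2 were lower, Ctnna3 (-0.85) and Ctnna2 (-0.20), the latter being the neuronal alpha-catenin. Of 11 planar polarity genes Fzd3, a receptor that acts with Celsr3 in axon guidance, was lower (38.0 against 60.8 TPM, -0.67 ± 0.11, limma adjusted p = 0.00827) and Dvl2 higher (0.29).

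The remaining lists had few calls between the knockouts. The Fat and Hippo list had 2 lower of 15, Wwtr1 (-0.30) and Nf2 (-0.18), and the list of protocadherin signals to actin had 1 higher, Taok2 (0.21), and 1 lower, Ptk2 (-0.27), of 12. None of 9 genes of cadherin and calsyntenin cleavage and none of 11 calsyntenin partners passed. Between the tissues in control more did, beside 33.1% of all genes. The actin list was 7 higher and 0 lower in hippocampus of 12, with Ptk2b at 0.98 and the WAVE subunits Nckap1 at 0.68, Cyfip1 at 0.65 and Abi1 at 0.57. The Hippo list was 5 higher and 3 lower of 15, with Lats2 at 1.27 and Tead1 at 0.81. Of the calsyntenin partners 1 was higher and 4 lower of 11, with Nrxn2 (-0.76) and Nrxn3 (-0.69) among the lower ones, as were Clstn1 and Clstn3. Catenins split 3 and 3 of 14, with Pkp2 at 2.16 and Ctnnb1 at -0.52.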

How the data were processed

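Polyadenylated RNA libraries were made with the stranded TruSeq kit, per the labels' protocols, and processed with STAR 2.5.3a, RSEM 1.3.3 and fastp 0.21.0 on build mm10, per the submitters' processing notes. The authors deposited 1 table of TPM (normalized to transcript length and to each library's total) per tissue, so depth is not recoverable. From these values log2(TPM + 1) was computed, genes with at least 1 TPM in at least 3 of the 10 libraries of a tissue were kept, and limma 3.58.1 (R 4.3.3, moderated with a trend) was fitted over the 3 genotypes of a tissue, or over 20 libraries for tissue contrasts and interactions. P-values were adjusted by Benjamini-Hochberg over all genes tested, with a threshold of 0.05; they measure only the spread between these libraries. The scripts were tested on simulated data. Named were members that passed among the 10 highest and 10 lowest fold changes, the nearest up to 4 a direction where fewer passed, the 3 highest members of each family, and up to 4 passing genes of each list. The members and lists were chosen with earlier results of these data known. Members are not replicates: conditions were compared over libraries. Alternatives were another pseudocount, filters, scalings, a replicate block, single libraries left out and, chosen after seeing the data, marker scores as covariates and 3 hippocampus libraries with extreme marker scores left out. In the fits of tissue contrasts and interactions, amygdala SMRT-KO 2 was left out together with these 3. Positions come from GENCODE M21 (74 of 76 members matched 1 entry) and promoters from RefSeq. Some results are not reported here.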

Additional observations from a re-analysis of the deposited data

Results flagged for a closer look

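In 54 members with values in a group of 4 control libraries, the gap between an extreme library and the others was unusually wide in 7 of 108 groups (6.48%); chance gives about 1 in 20. In hippocampus control, Cdh13 was 73.92 TPM in library 2 (others 47.82 to 49.19), Pcdh11x was 9.56 TPM in the same library (others 5.32 to 5.4), and Fat4 was 13.97 TPM in library 1 (others 8.28 to 8.91). In amygdala control, library 1 was low for Cdh2 at 143.85 TPM (others 155.72 to 155.99) and high for Dchs1 at 9.24 TPM (others 8.29 to 8.4). Library 3 was low for Celsr3 at 29.54 TPM (others 35.3 to 36.28) and high for Pcdhb16 at 6.12 TPM (others 3.79 to 4.15).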

How the results depend on the processing

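The 2 members called in amygdala SMRT-KO against control became 1 with a pseudocount of 0.1, and 0 with no filter, with median-ratio scaling, with Rn45s left out, with the replicate block, with only these 2 groups in the fit, and with the cortex layer, amygdala nuclei or oligodendrocyte score as a covariate; leaving out single libraries gave 0 to 10, with 10 without SMRT-KO 1. Fat3 lost its call in 17 of 21 settings and Clstn2 in 16 of 21. The 15 members called between the knockouts in amygdala became 9 with the replicate block and 0, 1 and 1 with the 3 scores; single libraries left out gave 4 to 17, with 4 without SMRT-KO 3, 5 without SMRT-KO 2 or NCoR1-KO 2 and 8 without NCoR1-KO 1. Amygdala NCoR1-KO against control gave 1 member, Fat4 (-0.69), with the amygdala nuclei score. Pcdh8 in amygdala turned to 0.18 in SMRT-KO against control with the cortex layer score, and to -0.17 and -0.037 between the knockouts with the cortex layer and amygdala nuclei scores; Pcdh1 between the knockouts turned to -0.011 and -0.0025 with the amygdala nuclei and oligodendrocyte scores. The cause was not tested beyond these fits. Hippocampus knockout and interaction counts were 0 in every alternative run. Tissue counts ran from 23 to 34 over the alternatives, with 32, 33 and 33 under the replicate block. The labels do not say what a replicate number marks, and not every same-numbered pair correlated by over 0.1, so the block was not used in the values reported: 15 of 20 libraries correlated best with their own number across tissues, and 8 of 10 such pairs had a correlation over 0.1 (median 0.147), against 2 of 9 between genotypes within each tissue. The reported tissue and interaction tests thus treated the libraries of the 2 tissues as unpaired, and a pairing by animal, if there was one, was ignored. TPM carries no depth, so low members such as Pcdhb4 or Cdh1 have an unknown counting error.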
